A study of Mus musculus with 9 samples.

Results

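The genes described here are 10 genes known as targets of Pax3 outside muscle, in melanocytes and the neural crest: the pigment cell regulator Mitf, the pigment genes Tyr, Tyrp1, Dct and Pmel, the receptors Ret, Kit and Ednrb, the adhesion molecule Nrcam and the transcription factor Snai2. They were taken by symbol, with the brightest probe set that carries exactly 1 symbol standing for each gene, and all 10 were found among the 19661 genes measured. The cells were cultured mouse myoblasts, the dividing precursors of skeletal muscle, of Balb/c background and skeletal muscle origin, kept in F10 medium that held 20% serum and 4 ng/ml basic fibroblast growth factor. The 9 arrays fall into 3 groups of 3: myoblasts overexpressing Pax3, myoblasts overexpressing Pax7, and control myoblasts, labelled CTAP, that carry an empty vector. The sources used here name neither the vector and its promoter nor the time since its introduction, and do not tell whether a group is 1 clone. The question was whether either factor switches on, in muscle precursors, genes known as Pax3 targets in other lineages.

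Pax3 and Pax7 are paralogous transcription factors that bind DNA through a paired domain and a homeodomain. In the neural crest, Pax3 acts together with Sox10 on Mitf, and the Mitf protein then turns on the enzymes and structural proteins of the pigment granule, the melanosome, through a short DNA element called the M-box. In mouse melanocyte stem cells Pax3 has been described to raise Mitf while it holds back Dct. Kit and Ednrb carry survival and migration signals to melanocyte precursors, Ret does so for the crest cells that form the nerves of the gut, and Nrcam and Snai2 act in axon adhesion and in the departure of crest cells from the neural tube. Balb/c mice are albino because of a missense change in the tyrosinase protein, which leaves the Tyr transcript in place as something an array can read.

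Promoter sequences are shown for the genes on which the results turn. RefSeq windows on GRCm38.p6, from 250 bases before to 50 bases after a gene's start, were at hand for 7 of the 10 genes (Mitf, Tyr, Tyrp1, Dct, Kit, Ednrb and Nrcam). The pigment enzyme genes carry the core of the M-box, CATGTG, close to their starts, and 20 bases around each match are given 5′ to 3′ with the core in capitals. The windows are chr7:87493463-87493762 (minus strand) for Tyr, chr4:80833963-80834262 (plus strand) for Tyrp1 and chr14:118052197-118052496 (minus strand) for Dct. The matches begin at -21 in Tyr, at -46 in Tyrp1 and at -150 and -232 in Dct, where -1 is the base before the start. The match at -232 in Dct lies on the opposite strand and is written as that strand reads.
Tyr at -21: agttagtCATGTGctttgca
Tyrp1 at -46: agggagtCATGTGctgccta
Dct at -150: ttagggtCATGTGctaacaa
Dct at -232: ttgggctCATGTGtcccagc
CATGTG was found on either strand in 14.2% of 32851 windows of the same length, and in none of the Mitf, Kit, Ednrb or Nrcam windows.

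Mitf has 3 annotated starts in the table. The most downstream one, chr6:97991533-97991832 on the plus strand, is shown because melanocytes use the most downstream start of this gene, and the Nrcam window, chr12:44328635-44328934 on the plus strand, because Nrcam is the gene of the group that changed most. Capitals mark ATTA on either strand, the core that homeodomains bind. GTCAC, the core of a paired-domain site, was searched on either strand as well.
Mitf, downstream start: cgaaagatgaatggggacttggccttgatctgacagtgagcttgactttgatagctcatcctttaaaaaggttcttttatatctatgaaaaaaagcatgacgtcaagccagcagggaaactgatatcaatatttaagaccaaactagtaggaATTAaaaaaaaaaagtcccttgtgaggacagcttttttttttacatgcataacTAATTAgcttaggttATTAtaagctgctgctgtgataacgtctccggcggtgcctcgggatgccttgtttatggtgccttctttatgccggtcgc
Nrcam: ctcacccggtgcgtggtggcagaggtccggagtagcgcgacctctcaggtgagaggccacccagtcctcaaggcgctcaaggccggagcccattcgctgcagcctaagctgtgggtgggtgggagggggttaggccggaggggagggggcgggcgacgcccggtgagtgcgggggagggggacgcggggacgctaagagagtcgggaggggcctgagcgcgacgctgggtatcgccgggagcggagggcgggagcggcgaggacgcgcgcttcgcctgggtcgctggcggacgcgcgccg
The Mitf window shown holds ATTA 4 times, from -98 to -30, with matches on opposite strands overlapping at -45 and -43, and neither of the other elements. The window of the middle Mitf start, not shown, holds GTCAC at -17 and ATTA at -200 and -117. That of the most upstream start holds none of these elements. The Nrcam window holds none of these elements. ATTA was found in 58% of all windows and GTCAC in 45.6%. The Mitf window shown has a GC content of 40% and the Nrcam window 74%, and a match or its lack describes these letters only. The remaining 3 genes lie at chr10:128695888-128720238 (Pmel), chr6:118151748-118197744 (Ret) and chr16:14705852-14709395 (Snai2) on the same build.

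Values are log2 intensities after RMA normalization. Array medians lay from 6.397 to 6.477, and precision is limited by having 3 arrays per group. Arrays correlated at r = 0.9971 to 0.999 within a group and at 0.9708 to 0.9949 between groups, across probe sets that are not independent replicates. Nothing in the labels tells if samples of 1 group were separate cultures, so p-values measure the spread between these samples, which may be technical. The introduced genes followed the labels: Pax3 averaged 11.05 in Pax3, 6.82 in Pax7 and 5.83 in control arrays, and Pax7 averaged 8.18 in Pax3, 12.28 in Pax7 and 10.51 in control arrays. Xist, the RNA that coats the silenced X of female cells, averaged 11.96 and 11.72 in Pax3 and Pax7 arrays and 4.77 in control arrays, while the Y-linked Eif2s3y averaged 3.12 and 3.08 in Pax3 and Pax7 arrays and 8.78 in control arrays. Each comparison with control therefore also compares cells with unlike sex-linked transcripts, and the 2 differences cannot be told apart; the comparison of Pax7 with Pax3 lacks that split. All 8 myoblast markers examined had group means above 8 in every group, among them Myod1 at 12.50 in Pax3, 12.18 in Pax7 and 12.62 in control arrays. Of these 8, 1 rose and 5 fell with Pax3 and 2 rose and 5 fell with Pax7 (limma adjusted p under 0.05). Their median log2 fold changes were -0.49 and -0.54. In either direction 75% and 87.5% of the 8 passed, beside 39.6% and 43.2% of all genes. The 8 include Pax7, itself an introduced gene, so its rise with Pax7, by 1.77, was set by the design. With Pax3 it fell by 2.33. Myf5 rose by 1.97 and 2.02, and the muscle intermediate filament gene Des fell by 0.52 and 1.33. The Pax3 array numbered 3 lay farthest from its group mean, with a median absolute deviation over genes of 0.0617 against 0.0300 to 0.0509 on the other 8 arrays, and calls that it decides are given with and without it.

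**Figure D1:**
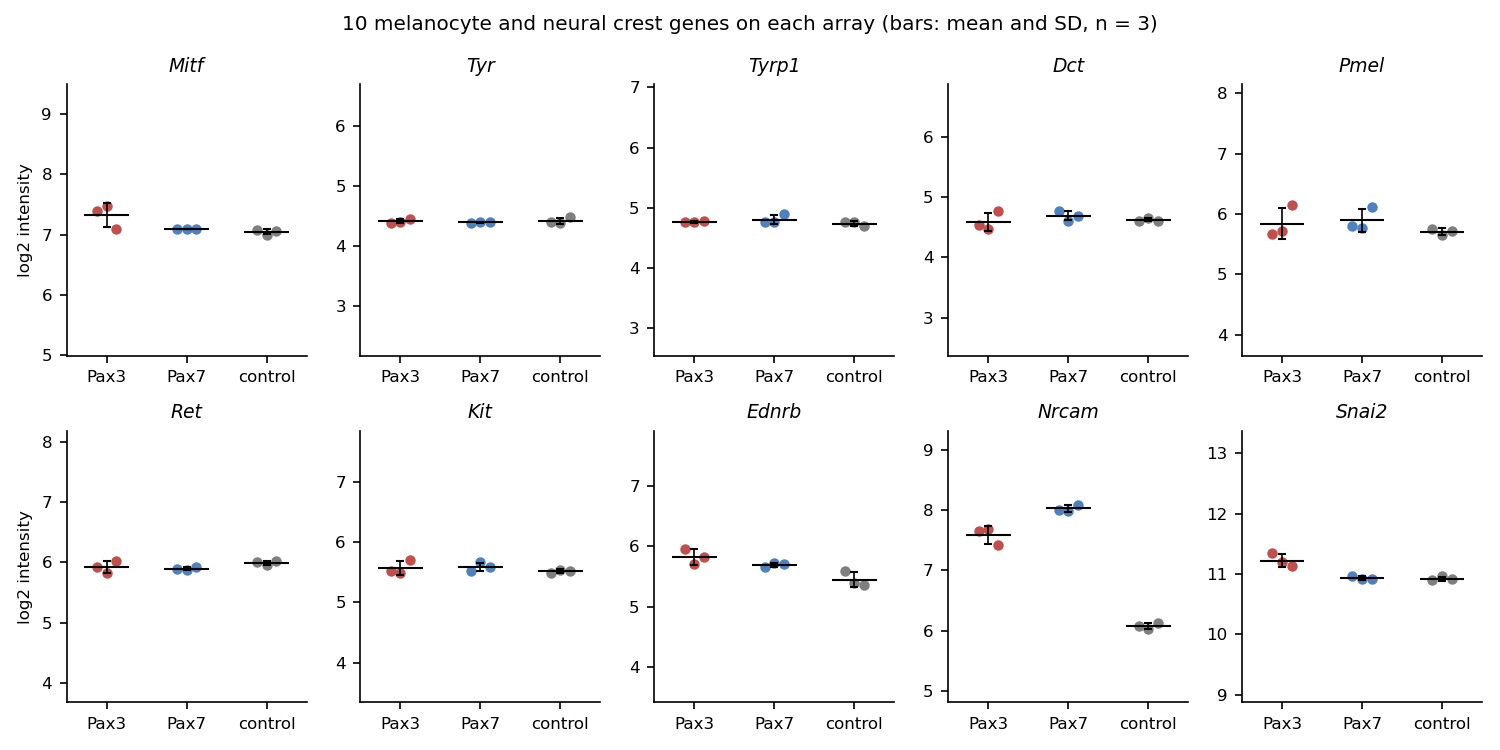
Log2 intensity of the 10 genes on each of the 9 arrays, with Pax3, Pax7 and control myoblasts from left to right in each panel; points are arrays in the order of their replicate numbers, and bars give the mean and SD of 3 arrays. Every panel spans the same 4.5 log2 units, and Nrcam is the gene whose Pax3 and Pax7 points stand clearly above its control points.

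None of the 4 pigment genes passed the test with either factor (none at an unadjusted p under 0.05 either), where 39.6% of all genes passed between Pax3 and control and 43.2% between Pax7 and control. Tyr, the rate-limiting enzyme of melanin synthesis, read 4.39, 4.40 and 4.45 on the Pax3 arrays, 4.38, 4.40 and 4.40 on the Pax7 arrays and 4.40, 4.38 and 4.48 on the control arrays. All 9 values lay within 0.10 log2 units and the groups overlapped. The difference was 0.00 ± 0.0426 for Pax3 against control (log2 fold change ± SE, n = 3 per group; limma adjusted p = 0.95) and -0.03 ± 0.0426 for Pax7 against control (adjusted p = 0.64). The 95% intervals end at a 1.06-fold and a 1.05-fold higher level, so a larger rise of the Tyr signal lies outside them.

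Tyrp1, an enzyme of the same family that stabilizes tyrosinase, read 4.76, 4.76 and 4.79 with Pax3, 4.76, 4.76 and 4.89 with Pax7, and 4.76, 4.76 and 4.70 in control. Of these 9 arrays, 6 carried the same value to the sixth decimal. Dct, the third enzyme of the family, read 4.53, 4.47 and 4.76 with Pax3, 4.76, 4.61 and 4.69 with Pax7, and 4.61, 4.65 and 4.61 in control. The highest Pax3 value of Dct came from the array numbered 3. Pmel, the protein that builds the fibrils of the melanosome, read 5.66, 5.72 and 6.14 with Pax3, 5.80, 5.77 and 6.11 with Pax7, and 5.75, 5.65 and 5.72 in control. In both overexpressing groups the high Pmel value was that of the array numbered 3, and the other Pax3 arrays lay within the control range. All 3 Pax7 arrays stood above the highest control array.

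Over these 4 pigment genes the log2 fold changes ran from -0.03 to 0.13 for Pax3 against control (limma adjusted p from 0.467 to 0.95) and from -0.03 to 0.19 for Pax7 against control (adjusted p from 0.262 to 0.64). None passed the threshold of a Benjamini-Hochberg adjusted p under 0.05. The widest intervals were those of Pmel, which reach 1.32-fold with Pax3 and 1.37-fold with Pax7. Pax7 and Pax3 arrays differed by -0.02 to 0.10 over the 4 genes (adjusted p from 0.452 to 0.843). Without the Pax3 array numbered 3, Dct passed between Pax7 and Pax3, at 0.186 (adjusted p = 0.0273). The table has no detection call, and Tyr, Tyrp1 and Dct were the 3 of the 10 genes among the lowest 25% of all genes by mean intensity, so that a low value cannot be told from no transcript.

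Mitf, the regulator above the pigment genes, was slightly higher with Pax3. It read 7.39, 7.48 and 7.10 on the Pax3 arrays, 7.10, 7.10 and 7.10 on the Pax7 arrays and 7.08, 7.0 and 7.06 on the control arrays. Both groups lay above all control arrays, but the lowest Pax3 array was the one numbered 3, and it shared its value to the sixth decimal with all 3 Pax7 arrays. Of the 10 genes, 4 had such identical values on 2 or more arrays, as did 42.9% of all genes. Of the genes given below, Kitl, Gfra1, Tgfa and Krt18 with Pax3 and Cdh11 and Dmrt2 with Pax7 had an SD of 0. Such ties in a group tell nothing of the spread between its samples. Mitf was 1.21-fold higher with Pax3 than in control (0.28 ± 0.0808, limma adjusted p = 0.0177), with an interval of 1.07-fold to 1.37-fold. The difference was 0.05 ± 0.0808 for Pax7 against control (adjusted p = 0.637) and -0.22 ± 0.0808 for Pax7 against Pax3 (adjusted p = 0.0937).

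The Mitf call rested on single arrays. Without the Pax3 array numbered 1, the Pax3 array numbered 2 or the control array numbered 2, its adjusted p was 0.0714, 0.0646 and 0.064. Without the Pax3 array numbered 3, the difference from control was 0.389 (adjusted p = 6.09e-05) and that of Pax7 from Pax3 was -0.335 (adjusted p = 0.00057). A second Mitf probe set lay between 2.59 and 2.79 with Pax3, 2.72 and 2.81 with Pax7 and 2.68 and 2.79 in control, with overlapping groups and a difference of -0.00924 for Pax3 against control (adjusted p = 0.929). The probe sets do not separate the isoform that melanocytes make from the others of this gene.

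Among the receptors, Ednrb rose and Ret and Kit did not pass the test. Ednrb, Ret and Kit were all among the lowest 50% of all genes by mean intensity. Ednrb, the endothelin receptor of melanocyte and gut nerve precursors, read 5.96, 5.70 and 5.82 with Pax3, 5.65, 5.72 and 5.70 with Pax7, and 5.59, 5.39 and 5.36 in control. Every Pax3 and Pax7 array stood above the highest control array, while the Pax3 and Pax7 ranges overlapped. Ednrb was 1.3-fold higher with Pax3 (0.38 ± 0.0754, limma adjusted p = 0.00181) and 1.18-fold higher with Pax7 (0.24 ± 0.0754, adjusted p = 0.0217) than in control. The Pax7 call ended without any of 4 single arrays, those numbered 2 and 3 of the Pax7 and control groups (adjusted p from 0.0627 to 0.086), and under cyclic loess scaling (0.194, adjusted p = 0.0586). Pax7 differed from Pax3 by -0.13 ± 0.0754 (adjusted p = 0.298).

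Ret, the receptor of the GDNF family ligands, read 5.92, 5.83 and 6.02 with Pax3, 5.89, 5.88 and 5.93 with Pax7, and 6.0, 5.96 and 6.03 in control. The Pax7 arrays lay just below all control arrays, and the Pax3 arrays overlapped with both. The differences from control were -0.07 ± 0.053 with Pax3 and -0.10 ± 0.053 with Pax7 (limma adjusted p = 0.361 and 0.181), and the intervals reach 1.03-fold and 1.02-fold higher. Under cyclic loess scaling Ret was called lower with Pax7, at -0.142 (adjusted p = 0.00869).

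Kit, the receptor of stem cell factor, read 5.52, 5.49 and 5.70 with Pax3, 5.52, 5.66 and 5.58 with Pax7, and 5.48, 5.54 and 5.52 in control. The groups overlapped, and the highest value of all was again on the Pax3 array numbered 3. The differences were 0.06 ± 0.0607 with Pax3 and 0.07 ± 0.0607 with Pax7 (limma adjusted p = 0.526 and 0.387), with intervals that reach 1.14-fold and 1.15-fold.

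Nrcam, an adhesion molecule of the L1 family that guides and clusters axons, rose more than any other of the 10 genes with both factors. It read 7.66, 7.69 and 7.42 on the Pax3 arrays, 8.0, 7.99 and 8.09 on the Pax7 arrays and 6.08, 6.03 and 6.12 on the control arrays. The 3 groups did not overlap, with Pax7 above Pax3 and both above control. Nrcam was 2.85-fold higher with Pax3 than in control (1.51 ± 0.0696, interval 2.56-fold to 3.17-fold, limma adjusted p = 2.06e-08). With Pax7 it was 3.86-fold higher than in control (1.95 ± 0.0696, interval 3.47-fold to 4.3-fold, adjusted p = 1.71e-09). Pax7 exceeded Pax3 by 1.35-fold (0.44 ± 0.0696, adjusted p = 0.00123).

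Nrcam was the 1 gene of the 10 to change by at least 1 log2 unit, in either comparison with control. Over all genes, 4.8% passed the threshold with a change of at least that size for Pax3 and 6.58% for Pax7; between Pax7 and Pax3, where none of the 10 did, the share was 0.895%. Both calls against control held under all 19 alternatives run, with log2 fold changes of 1.46 to 1.6 for Pax3 and 1.92 to 1.97 for Pax7. The genes whose pattern over the 9 arrays was most like that of Nrcam were Tmod3, a tropomodulin that caps actin filaments, Plekha2, a phosphoinositide-binding adaptor, and Amigo2, a leucine-rich repeat adhesion molecule. Their root mean square difference from Nrcam was 0.0466, 0.0600 and 0.0904 log2 units after each gene's own mean was removed. Tmod3 differed from control by 1.5 with Pax3 and by 1.97 with Pax7.

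Snai2 rose with Pax3 and not detectably with Pax7. This zinc finger repressor, also called Slug, read 11.34, 11.19 and 11.13 with Pax3, 10.97, 10.91 and 10.91 with Pax7, and 10.90, 10.96 and 10.91 in control. It was already high in control myoblasts, and the Pax3 arrays stood above all others while the Pax7 and control arrays interleaved. Snai2 was 1.23-fold higher with Pax3 than in control (0.29 ± 0.0552, limma adjusted p = 0.00124) and differed by 0.01 ± 0.0552 with Pax7 (adjusted p = 0.932, interval 0.923-fold to 1.09-fold). The direct difference of Pax7 from Pax3 was -0.29 ± 0.0552 (limma adjusted p = 0.00414), in the comparison without the sex-linked split. Whether a group is 1 clone is not told, so the factor and other differences between these 2 groups of cells cannot be told apart.

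**Figure D2:**
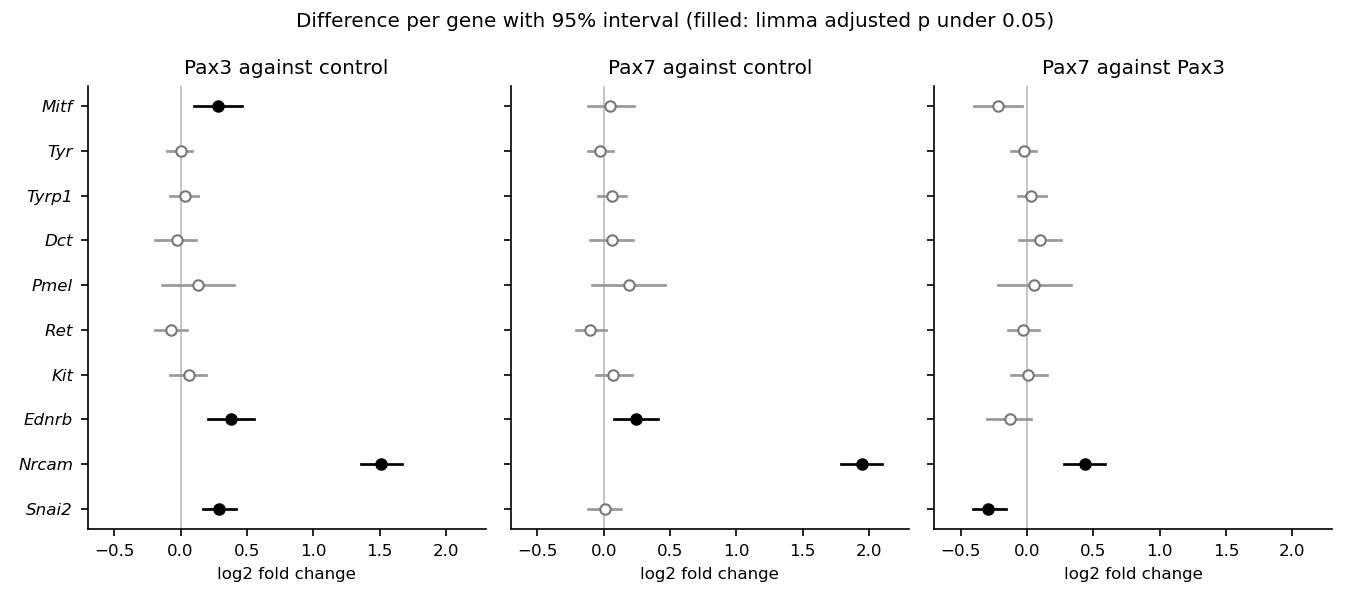
Log2 fold change of each of the 10 genes (x axis) with its 95% interval in the comparisons of Pax3 with control, Pax7 with control and Pax7 with Pax3; filled points passed a limma adjusted p under 0.05. The intervals of Tyr, Tyrp1, Dct, Pmel, Ret and Kit include 0 in all 3 panels, and those of Nrcam lie above 0 in all 3.

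Of the 10 genes, 4 passed between Pax3 and control, all higher (Mitf, Ednrb, Nrcam and Snai2), where 39.6% of all genes passed and 19.8% passed as higher. Between Pax7 and control 2 passed, both higher (Ednrb and Nrcam), where 43.2% of all genes passed and 21.6% as higher; under cyclic loess scaling these were Nrcam higher and Ret lower. Between Pax7 and Pax3 2 passed, Nrcam higher and Snai2 lower, where 16.9% of all genes passed, 8.33% as higher and 8.54% as lower. Taken in either direction, these counts are close to or below the share of all genes and are not a result about the group. Groups did not overlap in 4, 5 and 2 of the 10 genes in these comparisons, against 45.1%, 55.5% and 29.4% of all genes. The median log2 fold change of the 10 was 0.094, 0.063 and -0.005, beside 0.016, 0.027 and 0.007 over all genes. The comparisons with control share their control arrays and are given side by side for that reason.

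The relatives of Mitf and the factors upstream of it were tested as a list of 9. With Pax3, 3 rose and 2 fell, and with Pax7, 3 rose and 3 fell. In either direction 55.6% and 66.7% of the list passed, beside 39.6% and 43.2% of all genes. Tfe3, a paralogue of Mitf that controls lysosome genes, read 10.34, 10.32 and 10.30 with Pax3, 10.48, 10.47 and 10.43 with Pax7, and 9.46, 9.44 and 9.60 in control. Both groups stood well above control, by 0.82 ± 0.0494 and 0.96 ± 0.0494 (limma adjusted p = 1.82e-07 and 3.37e-08). Tfeb, another paralogue, differed by 0.20 with Pax3 and by 0.59 with Pax7 (limma adjusted p = 0.00235 and 4.73e-07). Lef1, the nuclear partner of beta-catenin that acts on Mitf and Dct, fell by 1.33 with Pax3 and 1.59 with Pax7 on the log2 scale.

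Sox10, the partner of Pax3 at Mitf, read 6.22, 6.07 and 6.34 with Pax3, 6.22, 6.22 and 6.31 with Pax7, and 6.16, 6.22 and 5.99 in control. The groups overlapped and neither difference passed (limma adjusted p = 0.428 and 0.227). Tfap2a, a neural crest and pigment cell regulator, fell by 0.35 with Pax3 and 0.52 with Pax7.

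Of 16 other melanosome and pigment genes, 7 rose and none fell with Pax3 (none at an unadjusted p under 0.05 either), and 7 rose and 1, the exchanger gene Slc24a5, fell with Pax7, by 0.16; that fall did not pass with limma's trended, robust prior. In either direction 43.8% and 50% of the list passed, beside 39.6% and 43.2% of all genes. Gpnmb, a melanosome and lysosome glycoprotein that macrophages also make, read 11.50, 11.47 and 11.45 with Pax3, 12.02, 12.08 and 12 with Pax7, and 7.78, 7.73 and 7.93 in control. It stood 3.66 ± 0.055 and 4.22 ± 0.055 above control (limma adjusted p = 6.71e-12 and 1.63e-12), with no overlap between any of the groups. The transport genes Rab27a and Myo5a, which move melanosomes and other vesicles along the cell cortex, differed by 0.37 and 0.42 with Pax3 and by 0.81 and 0.52 with Pax7, all past the threshold. Hps4, which acts in the making of lysosome-related organelles, rose by 0.45 with Pax3 and by 0.47 with Pax7. Mreg, a regulator of melanosome transfer, rose by 0.31 with Pax3 and by 0.58 with Pax7.

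Melanocyte markers were read as a separate list of 9, the 4 pigment genes above with Mlana, Slc45a2, Oca2, Gpr143 and Sox10. In each comparison 0 of the 9 passed (limma, with or without its trended, robust prior, and 0 at an unadjusted p under 0.05), and their log2 fold changes ran from -0.05 to 0.13 with Pax3 and from -0.03 to 0.19 with Pax7. Their summed log2 level ran from 45.9 to 47.7 with Pax3, 46.7 to 47.2 with Pax7 and 46.2 to 46.5 in control.

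**Figure D3:**
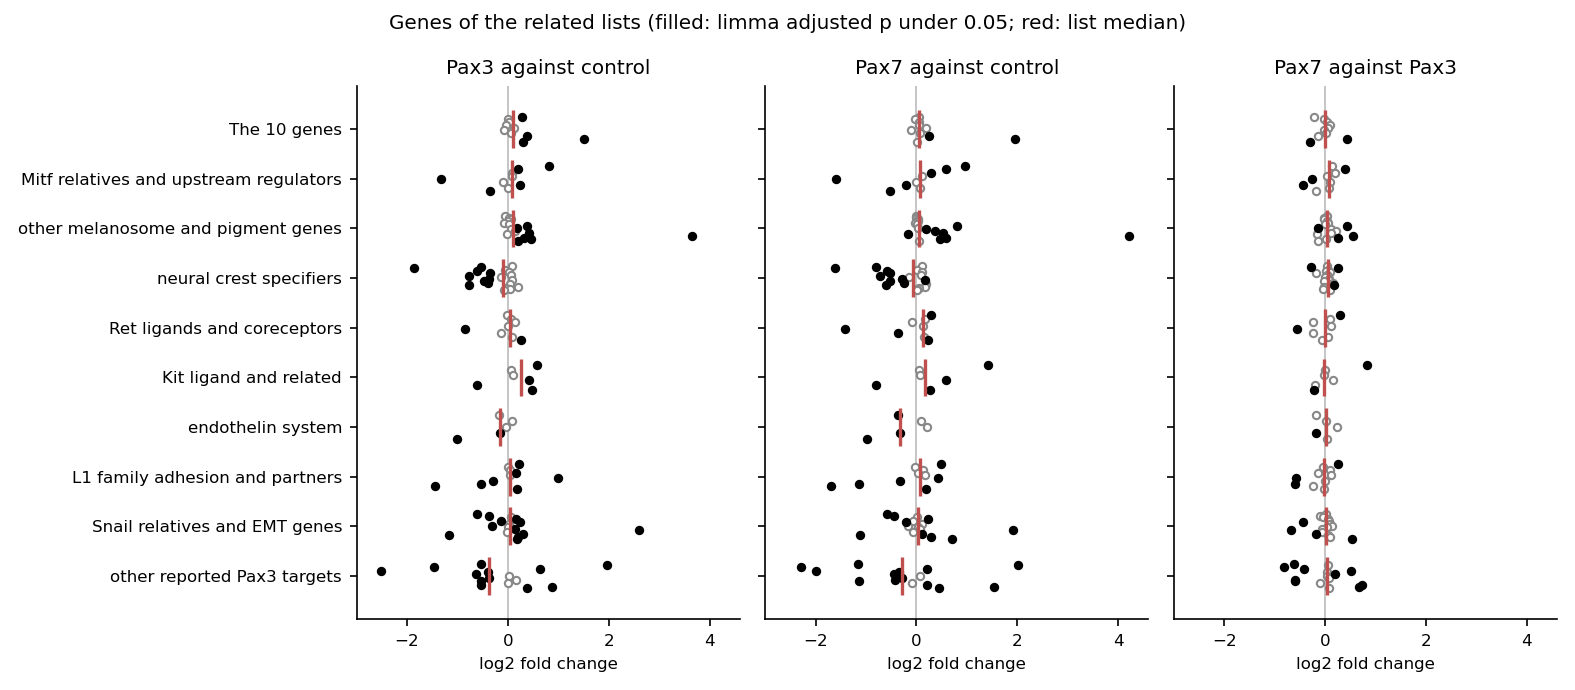
Log2 fold change (x axis) of every measured gene of the 9 related lists and of the 10 genes, in the 3 comparisons; filled points passed a limma adjusted p under 0.05 and the red line is the list's median. In the neural crest list no filled point lies right of 0 for Pax3 against control, and the far right point of the melanosome list is Gpnmb.

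Of 20 measured neural crest specifiers, none rose (none at an unadjusted p under 0.05 in limma either) and 9 fell with Pax3, and 1, Ets1, rose by 0.17 and 9 fell with Pax7, with medians of -0.10 and -0.06. Among all genes 19.7% fell with Pax3 and 21.5% with Pax7. In either direction 45% and 50% of the list passed, beside 39.6% and 43.2% of all genes. Sox8, a SoxE factor that satellite cells also express, read 7.04, 7.06 and 7.24 with Pax3, 7.39, 7.35 and 7.35 with Pax7, and 8.89, 8.99 and 9.05 in control, a difference of -1.86 and -1.61 (limma adjusted p = 1.54e-09 and 2.78e-09). Zic1 fell by 0.77 and 0.72, Snai1 by 0.62 and 0.59 and Sox9, the SoxE factor of cartilage and crest, by 0.53 and 0.81. Erbb3, the neuregulin receptor of Schwann cell precursors, fell by 0.77 with Pax3 and by 0.60 with Pax7.

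Some partners of the 3 receptors passed the test, while Ret and Kit did not. Among all genes 39.6% passed between Pax3 and control and 43.2% between Pax7 and control. Gfra1, the coreceptor through which GDNF reaches Ret, read 8.79, 8.79 and 8.79 with Pax3, 8.14, 8.27 and 8.28 with Pax7, and 9.66, 9.61 and 9.70 in control. The groups did not overlap, and Gfra1 fell by 0.86 with Pax3 and by 1.42 with Pax7 (limma adjusted p = 8.69e-08 and 9.96e-10). Over the 8 Ret ligands and coreceptors, 1, Gfra4, rose and 1 fell with Pax3, and 2 rose and 2 fell with Pax7. In either direction this was 25% and 50% of the list. The ligand Gdnf differed by 0.28 with Pax7 (adjusted p = 0.0127).

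Kitl, the ligand of Kit, read 5.71, 5.71 and 5.71 with Pax3, 6.57, 6.41 and 6.65 with Pax7, and 5.25, 5.18 and 4.96 in control. It was higher by 0.58 ± 0.079 with Pax3 and by 1.41 ± 0.079 with Pax7 (limma adjusted p = 0.000126 and 6.64e-08), and the 3 groups did not overlap. Over the list of 6 that holds Kitl, related receptors and a brake, 3 rose and 1 fell with each factor. In either direction this was 66.7% of the list each time, beside 39.6% and 43.2% of all genes. Among the related receptors, Pdgfra rose by 0.42 and 0.58 and Pdgfrb fell by 0.62 and 0.81, while Csf1r and Flt3 did not pass. The brake, Sh2b3, rose by 0.48 and 0.26. Ece2, a protease that makes active endothelin from its precursor, read 8.14, 8.32 and 8.29 with Pax3, 8.34, 8.28 and 8.25 with Pax7, and 9.24, 9.28 and 9.27 in control. Ece2 fell by 1.01 and 0.98 (adjusted p = 5.81e-08 and 5.48e-08), and over the 5 endothelin genes measured 2 fell with Pax3, 3 fell with Pax7 and none rose in either (at an unadjusted p under 0.05 in limma, none rose with Pax3 and 1 with Pax7). In either direction 40% and 60% of the 5 endothelin genes passed, beside 39.6% and 43.2% of all genes. Edn3, the ligand of Ednrb in the crest, averaged 6.07, 6.31 and 6.10 in Pax3, Pax7 and control arrays and did not pass against control.

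**Figure D4:**
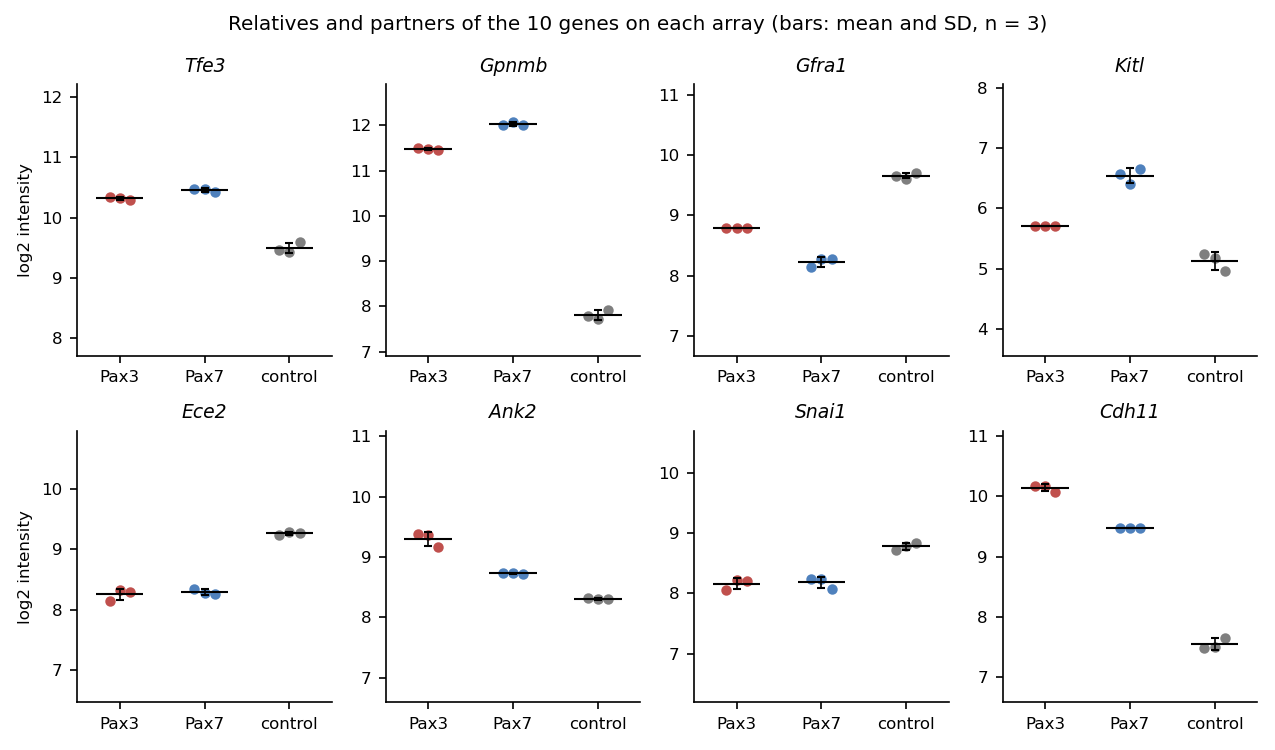
Log2 intensity of 8 relatives and partners on each of the 9 arrays, with Pax3, Pax7 and control myoblasts from left to right; points are arrays and bars give the mean and SD of 3 arrays. Panels span 4.5 log2 units, except Gpnmb with 6; Tfe3, Gpnmb, Kitl, Ank2 and Cdh11 lie above control and Gfra1, Ece2 and Snai1 below it in both groups.

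The L1 family and its partners gave no common direction: of 10, 4 rose and 3 fell with Pax3, and 3 rose and 3 fell with Pax7. In either direction 70% and 60% of the list passed, beside 39.6% and 43.2% of all genes. Ank2, an ankyrin that ties L1 proteins to the cytoskeleton, read 9.38, 9.36 and 9.16 with Pax3, 8.74, 8.73 and 8.72 with Pax7, and 8.32, 8.30 and 8.30 in control. Pax3 arrays stood above Pax7 arrays here, the reverse of Nrcam, with differences from control of 0.99 and 0.42 and a direct difference of Pax7 from Pax3 of -0.57 (limma adjusted p = 3.9e-05). L1cam, the founding member of the family, differed by 0.22 with Pax3 and by 0.48 with Pax7 (limma adjusted p = 0.0217 and 0.000117). Nrp1, a semaphorin receptor that pairs with L1 proteins, fell by 1.45 and 1.69 and the adhesion molecule Ncam1 by 0.53 and 1.13.

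Snai1 and Snai3, the closest relatives of Snai2, fell with both factors. Snai1 read 8.05, 8.22 and 8.21 with Pax3, 8.24, 8.23 and 8.07 with Pax7, and 8.71, 8.79 and 8.83 in control, below control in every array (limma adjusted p = 1.42e-05 and 1.56e-05). Snai3 fell by 0.37 with Pax3 and by 0.45 with Pax7. Over the 16 genes of this list, 7 rose and 5 fell with Pax3, and 5 rose and 4 fell with Pax7, which cyclic loess scaling turned to 4 and 6. In either direction 75% and 56.2% of the list passed, beside 39.6% and 43.2% of all genes. Cdh11, a mesenchymal cadherin of crest and bone cells, read 10.18, 10.18 and 10.08 with Pax3, 9.47, 9.47 and 9.47 with Pax7, and 7.49, 7.50 and 7.66 in control. Its differences were 2.60 ± 0.0531 and 1.92 ± 0.0531 (adjusted p = 4.99e-11 and 2.31e-10), and the epithelial junction gene Cldn1 fell by 1.17 and 1.12. The epithelial adhesion gene Epcam rose by 0.18 and 0.71 and the junction gene Ocln by 0.20 and 0.29, and the Snail family gene Scrt2 by 0.16 and 0.22.

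Of 15 other genes reported as Pax3 targets, 4 rose and 8 fell with Pax3, and 5 rose and 8 fell with Pax7. In either direction this was 80% and 86.7% of the list, beside 39.6% and 43.2% of all genes. The muscle determination gene Myf5 was 1.97 and 2.02 higher and the growth factor Tgfa 0.87 and 1.54 higher, while Dmrt2 differed by -2.51 and -1.99 and Fgfr4 by -1.46 and -2.28, all past the threshold.

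Markers of the other cell types that use these genes were measured beside them. Against control, 39.6% of all genes passed with Pax3 and 43.2% with Pax7. The endothelial shares were 14.3% and 28.6% and the neuronal shares 28.6% and 42.9%. None of the 7 mast cell markers, which include Kit, passed in any comparison (limma, with or without its trended, robust prior, and 0 at an unadjusted p under 0.05), and their summed level ran from 31.8 to 32.2 with Pax3, 32.1 to 32.3 with Pax7 and 31.6 to 32.1 in control. Of 7 endothelial markers, 1 rose with Pax3 and 2 with Pax7, among them Tek, and their summed level ran from 37.9 to 38.5 with Pax3, 38.6 to 39.0 with Pax7 and 37.1 to 37.6 in control. Of 7 neuronal markers, 1 rose and 1 fell with Pax3, and 2 rose and 1 fell with Pax7, with the growth cone protein Stmn2 at 2.85 and 3.04. The summed neuronal level ran from 41.4 to 42.6 with Pax3, 42.3 to 42.7 with Pax7 and 39.6 to 40.1 in control. The median log2 fold changes of the 7 were 0.03 and 0.04, so the higher sums reflect Stmn2 and not a general rise. Of the called neuronal genes, Stmn2 lay above control with both factors, as Nrcam did, while the neuronal tubulin Tubb3 fell by 1.00 with Pax3 and by 0.72 with Pax7; the part of neuronal transcripts in the Nrcam result was not tested.

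Of 6 measured Schwann and glial markers, 2 fell in each comparison with control, Fabp7 and Erbb3, with summed levels of 37.7 to 38.4 with Pax3, 39.7 to 40.0 with Pax7 and 41.6 to 42.1 in control. Of 6 macrophage markers, Cd68 alone rose, by 1.36 and 2.04, with summed levels of 32.9 to 33.0 with Pax3, 33.5 to 33.8 with Pax7 and 30.8 to 31.6 in control. Cd68 moved with Gpnmb, and its part in that result was not tested. Of 6 epithelial markers, 3 rose with Pax3 and 4 with Pax7, led by Krt18 at 0.66 and 2.44. This was 50% and 66.7% of them, beside 39.6% and 43.2% of all genes in either direction. Their summed levels were 35.3 to 36.0 with Pax3, 38.1 to 38.5 with Pax7 and 34.4 to 34.7 in control. In such bulk samples, a change in the share of cells that make a transcript and a change in the transcript per cell cannot be told apart.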

How the data were processed

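RNA from 9 samples was read on 1-colour Affymetrix arrays. The deposited log2 values were made with RMA in R 2.10.0, per the submitters' processing notes, and cover 25668 probe sets. RMA as a method corrects background, quantile-normalizes and summarizes probes, and it compresses differences of dim probe sets. Of these, 20777 carried 1 gene symbol, 232 several and 4659 none in the platform annotation. The brightest probe set of each symbol gave 19661 genes. Differences were tested with limma 3.58.1 in R 4.3.3 (lmFit and eBayes on all 9 arrays, 1 mean per group, two-sided) with Benjamini-Hochberg adjustment over all genes and a threshold of 0.05. From each list and comparison up to 4 genes past the threshold with the largest change were named, besides ligands, coreceptors and partners of the 10 genes; Slc24a5, Ets1, Ocln and Scrt2 were named after their values were seen. Genes with a pattern like that of a gene of the 10 that changed by at least 1 log2 unit are the 3 nearest by root mean square difference, clone, predicted, small RNA and olfactory symbols passed over. The 10 genes and all lists were chosen with earlier results of these data known. Replicate numbers were not used to pair samples in the main test. Deviations of same-numbered samples correlated at -0.03 to 0.22, with 3 of 9 pairs above 0.1, so some shared deviation is not excluded. Alternatives covered the prior, scaling, probe sets, filters, a minimum fold and each array left out. Scanner files were not used here.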

Additional observations from a re-analysis of the deposited data

How the results depend on the processing

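Over the 10 genes, 540 combinations of gene, comparison and setting were run. Of these, 498 kept the direction and the side of the threshold, 16 lost a call, 4 gained one and 22 turned a direction. The 498 include genes that were not called in the main test, so they do not measure how stable the calls are. A minimum fold of 1.2 (limma's treat) left 1, 1 and 0 of the 10 genes for Pax3 against control, Pax7 against control and Pax7 against Pax3 (for the last, 1 at an unadjusted p under 0.05), and 3264, 3819 and 784 of all genes. Removing the lowest 50% of genes left 3 of the 10 to be tested (Mitf, Nrcam and Snai2), of which 1, Nrcam, passed between Pax7 and control; Ednrb was not among those tested. With the replicate block, 4, 2 and 2 of the 10 and 7902, 8707 and 3328 of all genes passed, and no call on the 10 changed. Leaving out 1 array gave 3 to 4, 1 to 2 and 2 to 4 of the 10, and 6903 to 7753, 7519 to 9253 and 2507 to 4277 of all genes. Mitf with Pax3 also lost its call when only the 2 groups were fitted (adjusted p = 0.0518) and with the mean of its probe sets (0.134, adjusted p = 0.148). The lowest probe set turned Mitf to -0.00924 for Pax3 against control and 0.0436 for Pax7 against Pax3. Centring arrays turned Tyrp1 with Pax3 to -0.000664 and Snai2 with Pax7 to -0.00322, and cyclic loess turned Kit between Pax7 and Pax3 to -0.00948. None of those 5 was a call there, and Mitf with Pax3 alone was one before; the cause was not tested. Leaving out 1 array turned further differences that were never calls: for Pax3 against control, Tyr ran from -0.0244 to 0.026, Dct from -0.123 to 0.0259, Pmel from -0.0201 to 0.223 and Kit from -0.00739 to 0.096; for Pax7 against control, Tyr from -0.0481 to 0.00236 and Snai2 from -0.0132 to 0.0245; for Pax7 against Pax3, Tyrp1 from -0.00747 to 0.0562, Pmel from -0.0528 to 0.206, Ret from -0.0752 to 0.0236 and Kit from -0.0244 to 0.079. Signal limits Tyr, Tyrp1 and Dct, the dimmest of the 10, the most. Pmel, Ret, Kit and Ednrb were also among the lowest 50% of all genes by mean intensity.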
